A study of Mus musculus with 25 samples.

Results

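The genes described here encode subunits of oxidative phosphorylation, the respiratory chain and ATP synthase of the inner mitochondrial membrane. They were chosen by name from the array annotation: symbols that begin with Ndufa, Ndufb, Ndufc, Ndufs or Ndufv (without the Ndufaf assembly factors), Uqcr, Cox4i, Cox5, Cox6, Cox7, Cox8 or Atp5, together with Sdha, Sdhb, Sdhc, Sdhd, Cyc1 and Cycs. That gave 84 of the 18193 genes that had a probe set with 1 symbol, of which 36 belong to complex I, 4 to complex II, 9 to complex III, 17 to complex IV and 17 to complex V, and 1 is cytochrome c. For the 50 genes with several probe sets, the 1 with the highest mean over the arrays was used. Another 8 symbols lay only on probe sets shared by several genes and were left out, among them Ndufa11 and Ndufs6. All 84 genes were tested with no filter on signal, and 3 of them, Ndufb4, Cox6b2 and Cox7b2, had means below the array median. Ndufb4 also lay on brighter probe sets, with means of 4.77 and 4.84, which are shared with other genes and were not used.

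Complexes I and II take electrons from NADH and from succinate and pass them to ubiquinone, complex III passes them on to cytochrome c, and complex IV hands them to oxygen. Complexes I, III and IV move protons across the membrane, and complex V, the ATP synthase, uses their return to make ATP. Macrophages are known to shift between this pathway and glycolysis when they are activated, and the iron-sulfur clusters, hemes and thiols of its subunits are known targets of oxidants.

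RNA came from RAW 264.7 cells, a mouse macrophage line transformed by Abelson leukemia virus, grown in DMEM with fetal bovine serum, HEPES, penicillin and streptomycin. Hypochlorous acid (HOCl), the oxidant that neutrophil myeloperoxidase makes, had been added to the medium for 6 h. The 7 doses were 0.14 mM, 0.35 mM, 0.7 mM, 1.4 mM, 2.1 mM, 2.8 mM and 3.5 mM (3 arrays each), and 0 mM had 4 arrays, 25 Affymetrix mouse whole-genome arrays in all. The design text calls the replicates biological without saying whether each was a culture of its own, so p-values measure the spread between these arrays. Signals are given on the log2 scale, where 0 is the median of an array, and how precise they are depends on these few arrays. Each difference is a dose mean minus another dose mean (n = 3 per dose and n = 4 at 0 mM) with the standard error (SE) of a limma fit over all 25 arrays, and a gene was called when its Benjamini-Hochberg adjusted p over 45037 probe sets was under 0.05. Less RNA per cell and fewer cells of a kind cannot be told apart in such bulk samples.

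All 8 measured macrophage markers, Csf1r and Lyz2 among them, lay above the array median, and their mean per array was between 5.20 and 5.88. Of 14 measured markers of other cell types 4 lay above it, and the mean of that list per array was -0.08 to 0.02 at 3.5 mM, against -0.27 to -0.11 at 0 mM. The signal of 8 poly-A control probe sets divided the arrays into 11 low ones (at most 1.12) and 14 high ones (at least 1.75). Every array from 1.4 mM up was high and every array of 0 and 0.14 mM was low, so for these doses that level and the dose cannot be told apart. Only 0.35 and 0.7 mM held arrays of both levels. A fit with the level as a term draws it from those doses alone, which widens the errors from 1.4 mM up. A call lost in that fit therefore cannot be assigned to the level. The 3′ minus 5′ difference of Actb, a sign of RNA quality, ran from 0.28 to 0.68 at 3.5 mM, against 0.12 to 0.47 at 0 mM. Replicate 1 of 0 mM stood apart in these measures: its Gapdh 3′ minus 5′ difference was 0.355, where the other 24 arrays lay between -0.113 and -0.00835, and its Actb difference of 0.124 was the lowest. This array is in every comparison with 0 mM, and without it 20 subunit genes were called at 0.35 mM, 3 at 1.4 mM, 11 at 2.1 mM, 5 at 2.8 mM and 18 at 3.5 mM, against 24, 3, 15, 7 and 18 with it. The part of these measures in the results below was not tested, except where a fit is named.

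At 0.35 mM 24 of the 84 genes fell and none rose, and at 3.5 mM 17 rose and 1 fell. Between these doses calls were fewer and went both ways, and at 0.14 and 0.7 mM no subunit gene was called. Over the 7 doses together the F test called 42 of the 84 genes, while it called 24.7% of all probe sets.

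At 0.35 mM the 24 genes made up 28.6% of the members, and 4.72% of all probe sets were called lower and 1.71% higher (6.43% in either direction). In 22 of the 24 every 0.35 mM array lay below every 0 mM array, as in 85.2% of all probe sets called lower at this dose. The called changes ran from -1.30 (Ndufv3) to -0.26 (Ndufb8), and the median over all 84 genes was -0.14, against 0.03 over all probe sets. Complex I held 11 of the falls, complex III 2, complex IV 6 and complex V 5, and complex II had none. This count rested on few arrays: 1 gene was called without replicate 2 of 0.35 mM, 14 and 15 without its replicates 1 and 3, and 4 and 5 without replicates 2 and 4 of 0 mM. With only the 7 arrays of both doses in the limma fit none was called, and with a replicate block 5 were. A grouping of arrays that cuts across the doses is described with Ndufv3 below, and its part in this count was not tested.

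At 3.5 mM the 17 genes made up 20.2% of the members, and 3.93% of all probe sets were called higher and 5.40% lower (9.32% in either direction). The difference was positive in 82 of the 84 genes and in 65.2% of all probe sets, with medians of 0.28 and 0.08. The rises ran from 0.30 to 0.76, and in 16 of the 17 genes no 3.5 mM array overlapped the 0 mM arrays, as in 91.3% of all probe sets called higher. Complex I held 9 of them, complex II 1, complex III 2, complex IV 2 and complex V 3. After quantile normalization 8 genes rose and 1 fell, and with only the arrays of both doses 3 rose and 1 fell. With the control level as a term in the fit, drawn from 0.35 and 0.7 mM alone, 2 rose and 1 fell. Without replicate 2 of 3.5 mM 11 genes were called.

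At 1.4 mM 3 genes fell, 3.57% of the members, beside 3.43% of all probe sets lower and 4.39% higher (7.81% in either direction). At 2.1 mM 12 fell and 3 rose, 14.3% and 3.57% of the members, beside 6.09% of all probe sets lower and 7.26% higher (13.4% in either direction). At 2.8 mM 4 fell and 3 rose, 4.76% and 3.57% of the members, beside 6.26% of all probe sets lower and 5.64% higher (11.9% in either direction). With the control level as a term none was called at these 3 doses. That term is drawn from the arrays of 0.35 and 0.7 mM alone, so the loss cannot be assigned to the level. Leaving out 1 array gave 0 to 13 calls at 1.4 mM (0 without replicate 4 and 13 without replicate 3 of 0 mM). It gave 4 to 6 at 2.1 mM without any 1 array of that dose or replicate 4 of 0 mM. At 2.8 mM it gave 1 without replicate 2 or 3 of that dose, 12 without its replicate 1, and 2, 20 and 3 without replicates 2, 3 and 4 of 0 mM. At 0.14 mM limma called 0.00444% of all probe sets in either direction and none of the members, of which 2 had an unadjusted p under 0.05, beside 8.90% of all probe sets. At 0.7 mM it called 0.133% of all probe sets (0.120% higher and 0.0133% lower) and none of the members, of which 17 had an unadjusted p under 0.05, beside 11.4% of all probe sets. The 7 comparisons share the same 4 arrays of 0 mM.

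**Figure D1:**
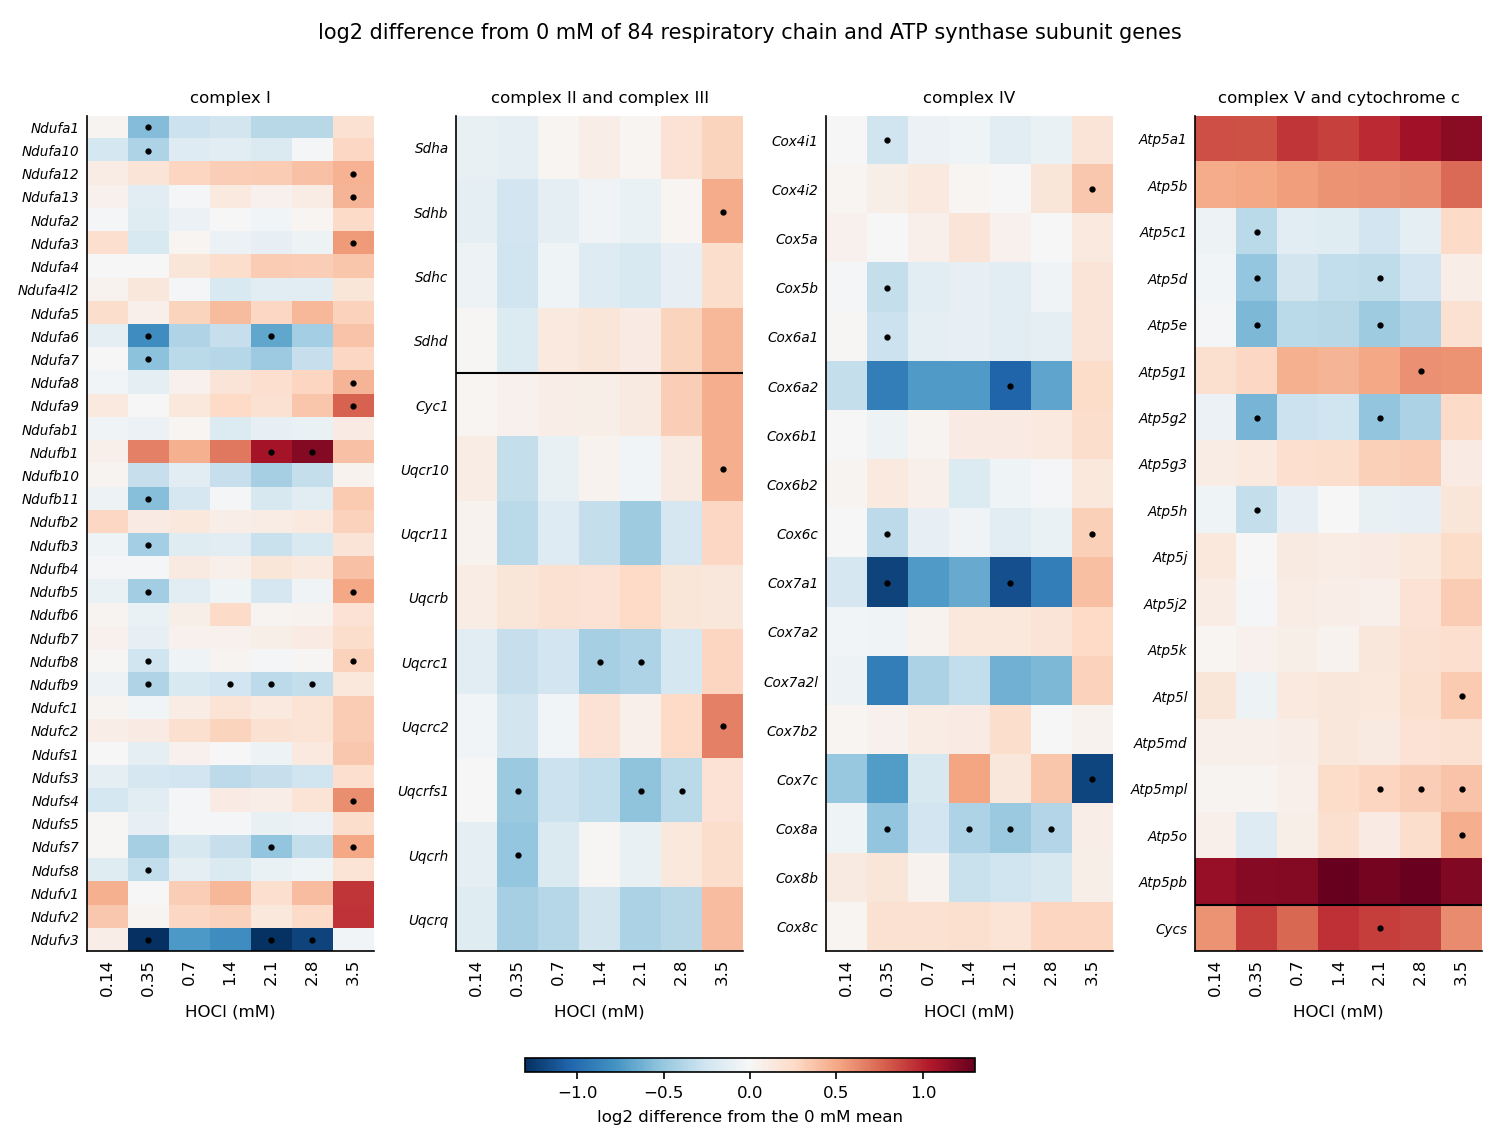
Log2 difference of each of the 84 genes from its 0 mM mean (colour) at the 7 HOCl doses in mM from left to right, with genes grouped by complex. Black dots mark called differences: 24 at 0.35 mM, all blue, and 18 at 3.5 mM, all red but for Cox7c.

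**Figure D2:**
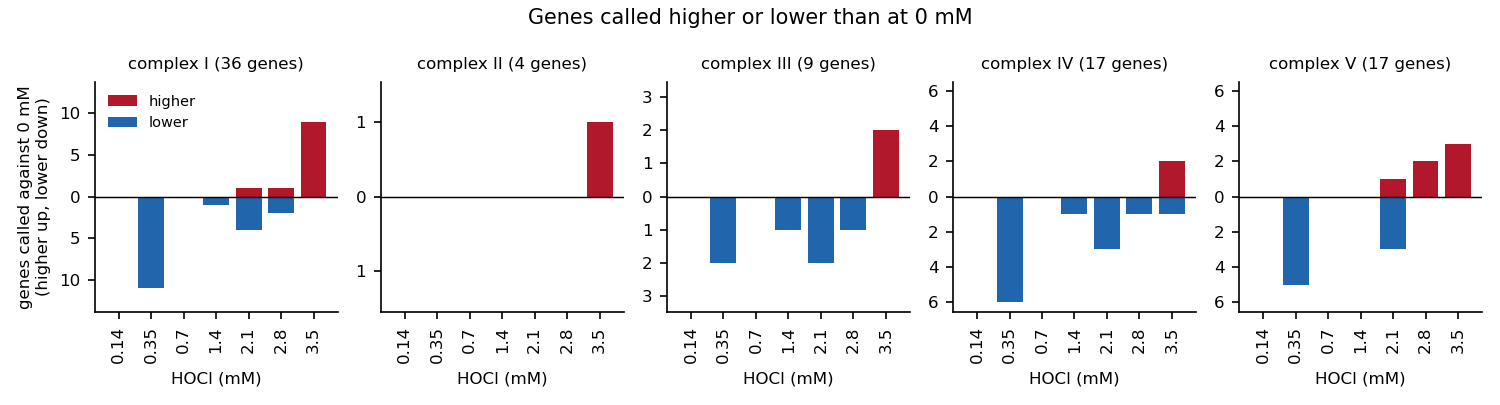
Number of genes of each complex called higher (red, upward) and lower (blue, downward) than at 0 mM at each HOCl dose in mM; vertical axes differ between complexes. Complex I has 11 falls at 0.35 mM and 9 rises at 3.5 mM.

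Of the 6 steps between neighbouring doses from 0.14 mM up, 2 had called subunit genes. At 0.35 mM 9 genes were lower than at 0.14 mM (2.27% of all probe sets were lower and 1.10% higher, 3.37% in either direction), and in all 9 the arrays of both doses were apart, as in 99.7% of all probe sets called lower at this step. They were Ndufa3, Ndufb9, Ndufv3, Uqcrfs1, Uqcrh, Cox5b, Cox8a, Atp5d and Atp5e. At 3.5 mM 28 genes were higher and 2 lower than at 2.8 mM (5.59% of all probe sets were higher and 5.66% lower, 11.2% in either direction), and 27 of the 28 had no overlap, as did 88.9% of all probe sets called higher at this step. All 6 arrays of this step have the high control level. The grouping of arrays described with Ndufv3 below coincides with the step from 0.14 to 0.35 mM. In Ndufv3 all arrays of 2.8 mM were on its low side and replicates 2 and 3 of 3.5 mM on its high side. The part of this grouping in the counts of both steps was not tested. The 28 were 14 genes of complex I, 1 of complex II, 4 of complex III, 5 of complex IV and 4 of complex V, and the 2 lower ones were Ndufb1 and Cox7c. At the other 4 steps limma called 0 members. An unadjusted p under 0.05 was found for 15 members at 0.7 against 0.35 mM, 2 at 1.4 against 0.7 mM, 0 at 2.1 against 1.4 mM and 2 at 2.8 against 2.1 mM. Over all probe sets the shares at these steps were 6.64%, 8.94%, 2.98% and 5.86%, in the same order. Of all probe sets 0.0244% were called at 2.8 against 2.1 mM (0.0178% higher and 0.00666% lower) and 0 at the other 3 steps. Counted over all 6 steps 33 genes were called, against 12 and 13 without replicates 2 and 3 of 2.8 mM and 17 and 21 without replicates 2 and 3 of 3.5 mM.

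The median difference of each complex on each array shows how even these shifts were. At 0.35 mM the 3 arrays stood at -0.09, -0.25 and -0.18 for complex I, and the 4 arrays of 0 mM at 0.04, -0.07, 0.04 and 0.01. For complex III they stood at -0.28, -0.35 and -0.41, against 0.04, -0.03, 0.01 and 0.04 at 0 mM. For complex V they stood at 0.05, -0.02 and -0.08, against 0.02, -0.10, 0.15 and 0.07 at 0 mM, so that its arrays overlapped, and whether the complexes differed was not tested. At 3.5 mM the arrays stood at 0.44, 0.28 and 0.28 for complex I and at 0.08, 0.22 and 0.21 for complex IV, above the 0 mM arrays of both complexes. One array of 2.8 mM, replicate 1, stood at 0.22 for complex I beside -0.07 and -0.09 for replicates 2 and 3.

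**Figure D3:**
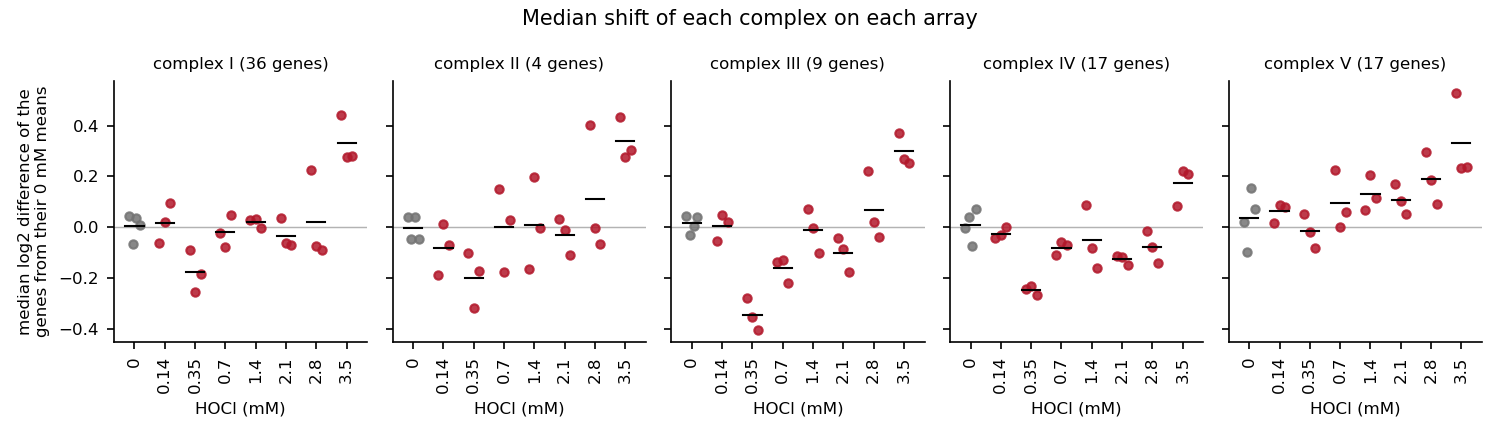
Median log2 difference of the genes of each complex from their 0 mM means on each of the 25 arrays (points, grey at 0 mM and red at the other doses) by HOCl dose in mM; black lines are dose means. At 0.35 mM the arrays of complexes I, II, III and IV lie below those of 0 mM, and at 3.5 mM the arrays of all 5 complexes lie above them.

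Promoters are shown for 1 gene of each complex. The called genes all fell at 0.35 mM and, but for Cox7c, all rose at 3.5 mM, though none of the genes shown was called at both doses. Whether promoter motifs have a part in these changes was not tested. RefSeq promoter windows of GRCm38.p6, 250 bases before to 50 bases after the transcript start, were found for 68 of the 84 genes (73 windows). The gene with the lowest F test p that had a window and a mean signal over 1 was taken from each complex. Motifs searched on both strands were those of NRF1 and of ETS factors such as GABP, which are known regulators of respiratory genes, and of YY1. Capitals mark the NRF1 core GCATGCGC, the ETS core CCGGAAG and the YY1 motif AAGATGGC, on either strand, and each window reads 5′ to 3′ on the strand of its gene. Ndufa3 lies at chr7:3617123-3617422 on the plus strand, Sdhb at chr4:140961021-140961320 on the plus strand, Uqcrfs1 at chr13:30545267-30545566 on the minus strand, Cox8a at chr19:7217567-7217866 on the minus strand and Atp5g2 at chr15:102670998-102671297 on the minus strand.
Ndufa3: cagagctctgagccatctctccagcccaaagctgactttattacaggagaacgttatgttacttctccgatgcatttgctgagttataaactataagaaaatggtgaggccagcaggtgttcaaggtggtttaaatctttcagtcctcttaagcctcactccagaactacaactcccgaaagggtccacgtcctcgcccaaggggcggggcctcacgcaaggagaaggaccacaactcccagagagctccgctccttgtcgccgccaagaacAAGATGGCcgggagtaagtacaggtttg
Sdhb: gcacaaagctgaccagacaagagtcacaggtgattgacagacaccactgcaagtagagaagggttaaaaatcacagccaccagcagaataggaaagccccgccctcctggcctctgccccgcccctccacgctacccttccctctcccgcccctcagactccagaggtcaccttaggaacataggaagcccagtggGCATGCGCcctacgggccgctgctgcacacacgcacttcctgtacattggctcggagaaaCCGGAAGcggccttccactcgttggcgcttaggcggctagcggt
Uqcrfs1: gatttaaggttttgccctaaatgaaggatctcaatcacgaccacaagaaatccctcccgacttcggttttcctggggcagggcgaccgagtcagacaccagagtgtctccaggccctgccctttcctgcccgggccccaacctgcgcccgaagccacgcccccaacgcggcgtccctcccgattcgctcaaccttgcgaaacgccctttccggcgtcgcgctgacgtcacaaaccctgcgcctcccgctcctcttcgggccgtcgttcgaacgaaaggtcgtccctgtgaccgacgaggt
Cox8a: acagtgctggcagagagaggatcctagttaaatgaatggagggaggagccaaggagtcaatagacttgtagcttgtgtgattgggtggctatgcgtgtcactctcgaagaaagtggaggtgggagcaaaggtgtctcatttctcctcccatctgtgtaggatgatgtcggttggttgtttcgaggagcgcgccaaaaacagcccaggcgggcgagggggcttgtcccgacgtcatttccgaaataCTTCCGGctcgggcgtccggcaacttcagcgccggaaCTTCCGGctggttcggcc
Atp5g2: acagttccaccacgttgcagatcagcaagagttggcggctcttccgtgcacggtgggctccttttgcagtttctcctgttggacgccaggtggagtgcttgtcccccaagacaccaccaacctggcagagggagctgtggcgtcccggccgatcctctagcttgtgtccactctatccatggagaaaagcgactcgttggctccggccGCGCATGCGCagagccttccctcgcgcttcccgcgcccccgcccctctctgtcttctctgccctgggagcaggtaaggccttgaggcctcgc
The Ndufa3 window holds 1 YY1 motif, that of Sdhb 1 NRF1 core and 1 ETS core, and that of Cox8a 2 ETS cores. The Atp5g2 window holds 2 overlapping NRF1 cores, which together form a longer NRF1 motif, the core with GC before it. None of these letters is in the Uqcrfs1 window.

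Among the 73 windows of the members 10 held the NRF1 core (13.7%), against 2.71% of all 32851 windows of the same length. The ETS core was in 17 (23.3%, against 8.86% of all) and the YY1 motif in 9 (12.3%, against 2.75% of all). The longer NRF1 motif, which contains the core, was in 4 windows (5.48%, against 0.971% of all) and in none of the 34 windows of complex I. Of the YY1 windows 6 belonged to complex I and 3 to complex V. These 4 motifs and the rule for the windows shown were chosen after values had been seen, and a match is a description of the letters, not a site in use.

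Complex I oxidizes NADH. Its genes fell at 0.35 mM in 11 cases and rose at 3.5 mM in 9, and the gene with the lowest F test p was Ndufb9, an accessory subunit of the membrane arm. Ndufb9 had 5.07, 5.03 and 4.94 at 0.35 mM, against 5.42, 5.42, 5.31 and 5.46 at 0 mM. All 3 arrays of 0.35 mM were below all 4 of 0 mM, and the difference of -0.39 (SE 0.07, adjusted p = 0.00743) was called in each of the 25 fits that leave out 1 array. It was also lower at 1.4 mM (-0.25, adjusted p = 0.0439, called in 9 of those 25 fits), at 2.1 mM (-0.34, adjusted p = 0.00445) and at 2.8 mM (-0.31, adjusted p = 0.00959). At 3.5 mM the arrays had 5.55, 5.48 and 5.59, all above those of 0 mM, and the difference of 0.13 did not pass the test (adjusted p = 0.259). Another probe set of Ndufb9, with a mean of 5.13, also fell at 0.35 mM (-0.33, adjusted p = 0.0224). It was not called at 1.4, 2.1 or 2.8 mM (-0.12, -0.24 and -0.18), and it rose by 0.35 at 3.5 mM (adjusted p = 0.00919). From 1.4 mM up the results for Ndufb9 thus depend on the probe set.

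Ndufv3, an accessory subunit of the NADH-oxidizing module, had the largest fall among the 84 genes at 0.35 mM, 2.1 mM and 2.8 mM. It had 4.61, 4.55 and 4.41 at 0.35 mM, against 5.88, 6.22, 4.97 and 6.22 at 0 mM. The 0.35 mM arrays were the lower ones, and replicate 3 of 0 mM lay between them and the other 0 mM arrays. The difference of -1.30 (SE 0.33, adjusted p = 0.0240), a 2.46-fold lower signal, stood beside -1.29 at 2.1 mM (adjusted p = 0.0132) and -1.21 at 2.8 mM (adjusted p = 0.0210). Arrays of 1 dose were far apart at 0.7 mM, with 4.82, 5.80 and 4.60, and at 1.4 mM, with 5.77, 4.75 and 4.52. At 3.5 mM they had 5.11, 6.05 and 6.21, again with 1 array apart. The same arrays were the lower ones of their dose in Ndufv3, Cox7a1, Cox7a2l and Pdk1. At 0 and 0.7 mM they were replicate 3 and replicates 1 and 3. At 1.4 and 3.5 mM they were replicates 2 and 3 and replicate 1. In Atp5g1 these arrays were the higher ones. Every array of 0.35, 2.1 and 2.8 mM was on the low side in Ndufv3. Every array of 0.14 mM was on the high side, with 5.86, 5.90 and 5.98. At these doses dose and this grouping cannot be told apart. Its cause was not tested. Ndufa6, a subunit with an LYR motif, fell by 0.80 at 0.35 mM (SE 0.19, adjusted p = 0.0189) and by 0.67 at 2.1 mM (adjusted p = 0.0242).

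Ndufa3, an accessory subunit of the membrane arm, had the smallest adjusted p of the 84 genes at 3.5 mM. It had 5.84, 5.91 and 5.96 at 3.5 mM, against 5.25, 5.35, 5.30 and 5.50 at 0 mM. No array of 3.5 mM was as low as the highest of 0 mM, and the rise was 0.56 (SE 0.10, adjusted p = 0.000825). Another probe set of Ndufa3 rose by 0.45 (adjusted p = 0.00681).

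The largest called rise at 3.5 mM was that of Ndufa9, a subunit near the ubiquinone site. Ndufa9 had 6.07, 6.15 and 6.01 at 3.5 mM, against 4.76, 5.54, 5.41 and 5.54 at 0 mM. Replicate 1 of 0 mM was the lowest array, and the rise of 0.76 (SE 0.14, adjusted p = 0.00172) was called also without it. Without that array the rise was 0.58, below the 0.66 of Uqcrc2, so its rank as the largest rests on that array. Ndufs4, an accessory subunit whose loss causes a Leigh-like disease in mice, had 4.52, 4.65 and 4.64 at 3.5 mM, against 3.95, 4.00, 3.83 and 4.21 at 0 mM. It rose by 0.61 (SE 0.11, adjusted p = 0.00138).

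Ndufb5, another membrane arm subunit, passed the test in both directions. It had 5.41, 5.24 and 5.41 at 0.35 mM and 6.18, 6.29 and 6.48 at 3.5 mM, against 5.84, 5.84, 5.55 and 5.99 at 0 mM. The arrays of 0.35 mM lay below and those of 3.5 mM above all 0 mM arrays, with a fall of 0.45 (adjusted p = 0.0231) and a rise of 0.51 (adjusted p = 0.00679). Ndufb8 likewise fell by 0.26 at 0.35 mM (adjusted p = 0.0380) and rose by 0.30 at 3.5 mM (adjusted p = 0.0103), where a dimmer probe set differed by -0.19.

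Ndufb1, a small membrane arm subunit, was the 1 gene of complex I called higher at 2.1 and 2.8 mM. It had 2.54, 2.69 and 2.57 at 2.1 mM and 2.44, 2.88 and 2.81 at 2.8 mM, against 1.70, 1.13, 1.87 and 1.38 at 0 mM. All arrays of both doses lay above those of 0 mM, with rises of 1.08 (SE 0.24, adjusted p = 0.00507) and 1.19 (SE 0.24, adjusted p = 0.00303). At 3.5 mM the arrays had 2.63, 1.79 and 1.27, and the difference of 0.38 from 0 mM did not pass (adjusted p = 0.326).

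For Ndufa12, an accessory subunit, the probe sets disagreed at 3.5 mM. The brightest rose by 0.45 (adjusted p = 0.0279), while a dim probe set, with a mean of 0.66, fell by 0.99 (adjusted p = 0.0447). Ndufb4 was called at no dose by its own dim probe set, with a mean of -1.05. The brighter probe sets that Ndufb4 shares with other genes rose at 3.5 mM by 0.63 (adjusted p = 0.0101) and 0.44 (adjusted p = 0.00759). Ndufa4, counted here with complex I by its symbol though its protein has since been assigned to complex IV, differed from 0 mM by 0.36 at 3.5 mM (adjusted p = 0.0615). Its paralog Ndufa4l2, known as a target of hypoxia signalling, stayed between 0.46 and 1.44 on the 25 arrays and was called at no dose.

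**Figure D4:**
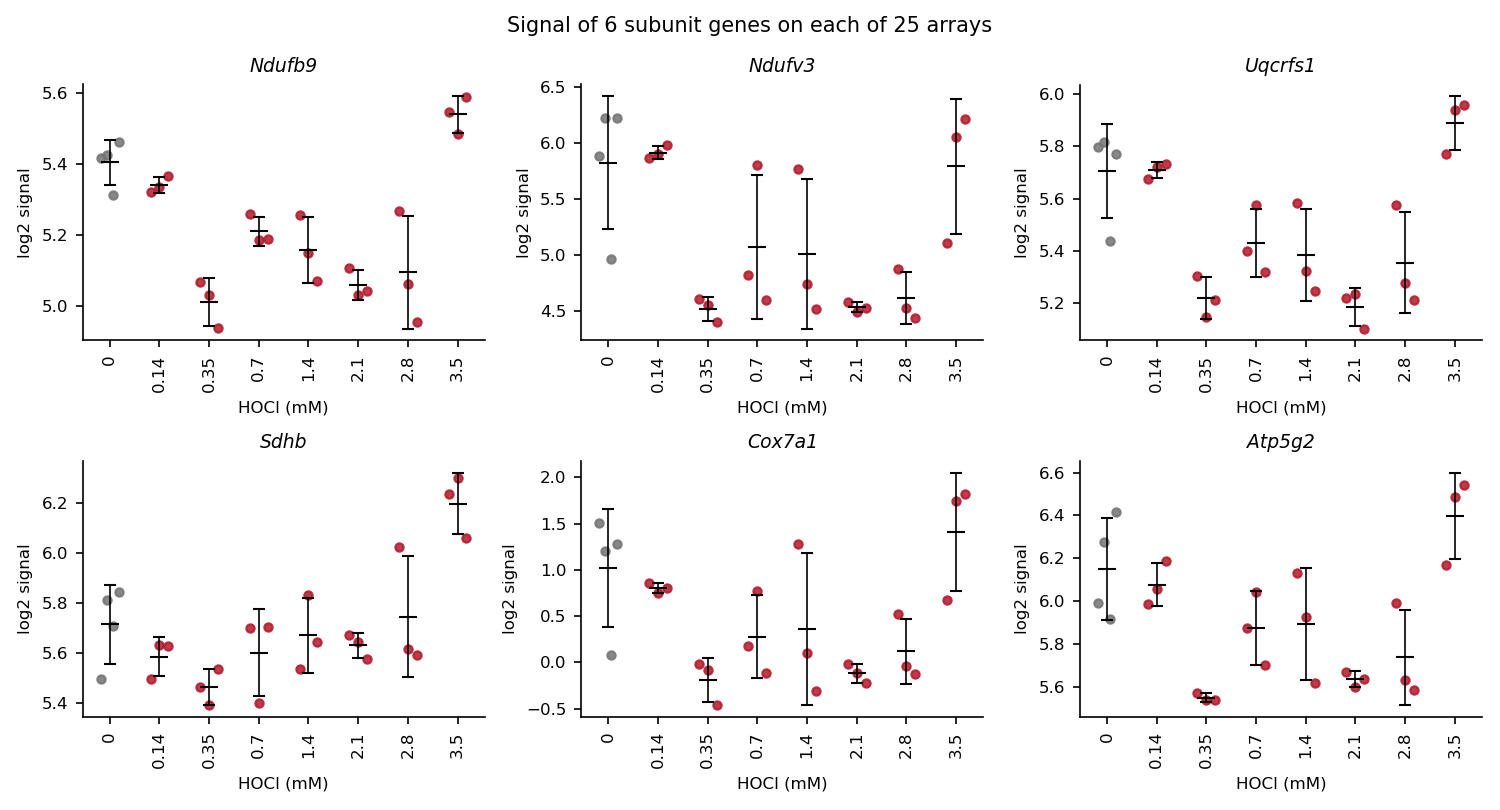
Log2 signal of Ndufb9, Ndufv3, Uqcrfs1, Sdhb, Cox7a1 and Atp5g2 on each array (points, grey at 0 mM and red at the other doses) by HOCl dose in mM, with mean and SD of the 3 or 4 arrays of a dose in black; vertical axes differ. Ndufv3 and Cox7a1 show arrays of 1 dose far apart at 0.7 and 1.4 mM, and Sdhb is highest at 3.5 mM.

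Complex II, succinate dehydrogenase, also belongs to the TCA cycle and is the smallest group. Sdhb, its iron-sulfur subunit, had 6.23, 6.30 and 6.06 at 3.5 mM, against 5.50, 5.81, 5.71 and 5.84 at 0 mM. The 3.5 mM arrays were all higher, and the rise was 0.48 (SE 0.11, adjusted p = 0.00988). It was the only gene of complex II called at any dose.

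The membrane anchors Sdhc and Sdhd and the flavoprotein Sdha did not pass at 3.5 mM, with differences of 0.23 (adjusted p = 0.301), 0.43 (adjusted p = 0.0540) and 0.29 (adjusted p = 0.153). At 0.35 mM all 4 genes had negative differences, from -0.26 to -0.13, and none passed. Another probe set of Sdha, with a mean of 4.24, fell by 0.80 at 0.35 mM (adjusted p = 0.00806), where the brightest differed by -0.13 (adjusted p = 0.595), so the result for Sdha depends on the probe set.

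Complex III, the cytochrome bc1 complex, had 6 of its 9 genes called by the F test. Uqcrfs1, its Rieske iron-sulfur protein, had 5.30, 5.15 and 5.21 at 0.35 mM and 5.22, 5.24 and 5.10 at 2.1 mM, against 5.80, 5.82, 5.44 and 5.77 at 0 mM. Neither dose overlapped with 0 mM, where replicate 3 was the lowest array, and Uqcrfs1 fell by 0.49 (SE 0.11, adjusted p = 0.0138) and by 0.52 (SE 0.11, adjusted p = 0.00363). At 3.5 mM it had 5.77, 5.94 and 5.96 and differed from 0 mM by 0.19 (adjusted p = 0.290).

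Uqcrh, the hinge protein, had 6.21, 6.16 and 6.32 at 0.35 mM, against 6.80, 6.78, 6.47 and 6.88 at 0 mM. It was lower on all 3 arrays and fell by 0.50 (SE 0.10, adjusted p = 0.00880), and from 1.4 mM up its differences were between -0.09 and 0.23 and were not called. The core proteins Uqcrc1 and Uqcrc2 had unlike patterns. Uqcrc1 had 4.97, 5.23 and 5.18 at 1.4 mM, against 5.57, 5.52, 5.57 and 5.59 at 0 mM, and fell by 0.43 (SE 0.11, adjusted p = 0.0222), and by 0.40 at 2.1 mM (adjusted p = 0.0211). Uqcrc2 had 6.22, 6.36 and 6.08 at 3.5 mM, against 5.56, 5.61, 5.42 and 5.65 at 0 mM, and rose by 0.66 (SE 0.11, adjusted p = 0.000866). Whether the 2 genes differed in their response was not tested.

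Cyc1, the cytochrome c1 heme protein, was called at no dose. Its difference was 0.48 at 3.5 mM (SE 0.17, adjusted p = 0.0904), with 6.62, 6.34 and 6.11 at 3.5 mM, against 5.73, 5.70, 6.29 and 5.79 at 0 mM. Replicate 3 of 0 mM overlapped with the 3.5 mM arrays and the other 3 did not.

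Complex IV, cytochrome c oxidase, has a core encoded in mitochondrial DNA and nuclear subunits around it, several of them with isoforms. Cox8a, the smallest common subunit, had 5.19, 5.05 and 4.82 at 0.35 mM, against 5.57, 5.64, 5.28 and 5.64 at 0 mM. All 3 were below the 0 mM arrays, and Cox8a fell by 0.51 (SE 0.12, adjusted p = 0.0159). It was also lower by 0.40 at 1.4 mM (adjusted p = 0.0415), 0.49 at 2.1 mM (adjusted p = 0.00977) and 0.38 at 2.8 mM (adjusted p = 0.0403), and its difference at 3.5 mM was 0.09 (adjusted p = 0.673). The call at 1.4 mM was kept in 12 of the 25 fits that leave out 1 array. Another probe set, with a mean of 5.16, also fell at 0.35 mM (-0.46, adjusted p = 0.0240) and 2.1 mM (-0.41, adjusted p = 0.0233). It was not called at 1.4 mM (-0.34, adjusted p = 0.0802) or 2.8 mM (-0.34, adjusted p = 0.0606).

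Cox5b, a zinc-binding subunit, had 6.66, 6.66 and 6.68 at 0.35 mM, against 6.97, 6.88, 7.08 and 6.97 at 0 mM. These arrays were tightly grouped below 0 mM, with a fall of 0.31 (SE 0.07, adjusted p = 0.0188), though the probe set of largest variance, a dim one with a mean of 1.06, differed by 0.0104. Other bright probe sets of Cox5b differed by -0.27 (adjusted p = 0.0381), -0.29 (adjusted p = 0.0289) and -0.20 (adjusted p = 0.0837). Cox6c fell by 0.34 at 0.35 mM (adjusted p = 0.0300) and rose by 0.31 at 3.5 mM (adjusted p = 0.0372).

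Cox7c was the 1 subunit gene that fell at 3.5 mM. It had -0.08, -0.86 and -0.73 at 3.5 mM, against 0.84, 0.93, 0.09 and 0.67 at 0 mM. The arrays of both doses did not overlap, and the log2 difference was -1.19 (SE 0.28, adjusted p = 0.00999). It did not pass without replicate 2 of 3.5 mM (-1.04, adjusted p = 0.0559). Both of its probe sets were close to the array median, with means of 0.44 and -0.27, so that neither is shown to be above background, and the second differed by -0.71 (adjusted p = 0.0667).

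Of the isoform pairs, the common forms Cox4i1 and Cox6a1 fell at 0.35 mM by 0.26 (adjusted p = 0.0433) and by 0.28 (adjusted p = 0.0439). These falls stayed called in 13 and 11 of the 25 fits that leave out 1 array. Cox4i2, the isoform known from lung and from hypoxia, had 0.78, 0.47 and 0.62 at 3.5 mM, against 0.11, 0.41, 0.23 and 0.34 at 0 mM, and rose by 0.35 (SE 0.09, adjusted p = 0.0135). Its arrays did not overlap with 0 mM and all lay close to the array median.

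Isoforms known from heart and skeletal muscle, Cox6a2 and Cox7a1, had the largest falls of complex IV at 2.1 mM. Cox7a1 had -0.02, -0.08 and -0.46 at 0.35 mM, against 1.51, 1.20, 0.08 and 1.28 at 0 mM. Its 0.35 mM arrays were below all of 0 mM, among which replicate 3 stood apart, and Cox7a1 fell by 1.21 (SE 0.35, adjusted p = 0.0459) and at 2.1 mM by 1.14 (adjusted p = 0.0370). These calls were kept in 8 and 19 of the 25 fits that leave out 1 array. The mean of Cox7a1 over the arrays, 0.48, was close to the array median, so it is not shown to be above background. Its arrays of 0.35 and 2.1 mM were all on the low side of the grouping described with Ndufv3, whose part was not tested. Cox6a2 had 1.85, 1.89 and 1.77 at 2.1 mM, against 2.38, 3.44, 2.08 and 3.59 at 0 mM, and fell by 1.04 (SE 0.30, adjusted p = 0.0271).

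Cox7a2l, a factor that joins complexes III and IV in supercomplexes, had 4.85, 4.52 and 4.84 at 0.35 mM, against 5.43, 6.19, 4.75 and 6.17 at 0 mM. The arrays overlapped through replicate 3 of 0 mM, and the difference of -0.90 did not pass (adjusted p = 0.0675). Its other probe sets, with means of 4.56, differed at this dose by -0.90 (adjusted p = 0.0491, called) and by 0.29 (adjusted p = 0.862). By the probe set used, Cox7a2, Cox6b1, Cox6b2, Cox8b and Cox8c were called at no dose. At 3.5 mM Cox7a2 differed by 0.26 (adjusted p = 0.0785), Cox6b1 by 0.23 (adjusted p = 0.0567) and Cox8c, known from testis, by 0.28 (adjusted p = 0.0563). Another probe set of Cox7a2, with a mean of 6.43, rose by 0.36 at 2.8 mM (adjusted p = 0.0219) and by 0.37 at 3.5 mM (adjusted p = 0.0214).

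Complex V is built of a catalytic head, a central stalk, a peripheral stalk and a membrane ring of c subunits. The 3 genes of the central stalk, Atp5c1 (gamma), Atp5d (delta) and Atp5e (epsilon), fell at 0.35 mM by 0.35 (adjusted p = 0.0300), 0.50 (adjusted p = 0.0123) and 0.59 (adjusted p = 0.0153). Atp5e had 4.90, 4.93 and 4.81 at 0.35 mM, against 5.60, 5.47, 5.15 and 5.64 at 0 mM. Every 0.35 mM array was below every 0 mM array in each of the 3 genes, though the Atp5c1 probe set of largest variance, a dim one with a mean of 0.62, differed by 0.0574. At 2.1 mM Atp5d fell by 0.33 (adjusted p = 0.0463) and Atp5e by 0.46 (adjusted p = 0.0260), while Atp5c1 differed by -0.25 (adjusted p = 0.0797).

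The c subunit is encoded by Atp5g1, Atp5g2 and Atp5g3, whose mature proteins are the same. Atp5g2 had 5.57, 5.54 and 5.54 at 0.35 mM, against 5.99, 6.28, 5.91 and 6.42 at 0 mM. It fell by 0.60 (SE 0.14, adjusted p = 0.0160) at 0.35 mM and by 0.51 at 2.1 mM (adjusted p = 0.0176), with no overlap at either dose. Atp5g1 had 5.99, 5.68 and 5.62 at 2.8 mM, against 4.97, 4.93, 5.73 and 5.04 at 0 mM. Replicate 3 of 0 mM reached into the 2.8 mM arrays, and the rise was 0.60 (SE 0.19, adjusted p = 0.0475). This call was kept in only 6 of the 25 fits that leave out 1 array. Atp5g3 differed by 0.13 at 0.35 mM (adjusted p = 0.581) and was not called there.

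Atp5mpl, a small membrane subunit, was the 1 gene of the 84 called higher at 3 doses. It had 5.97, 6.02 and 5.94 at 2.1 mM, 6.07, 6.02 and 5.95 at 2.8 mM and 6.24, 6.05 and 5.92 at 3.5 mM, against 5.91, 5.45, 5.65 and 5.77 at 0 mM. All 9 arrays lay above those of 0 mM, with rises of 0.28 (adjusted p = 0.0419), 0.32 (adjusted p = 0.0231) and 0.38 (adjusted p = 0.0104). None of the 3 calls was kept after quantile normalization, with the control level as a term or with only the groups compared. They were kept in 13, 21 and 24 of the 25 fits that leave out 1 array. Atp5o, a peripheral stalk subunit, and Atp5l, a membrane subunit, rose at 3.5 mM by 0.48 (adjusted p = 0.0187) and 0.34 (adjusted p = 0.0161).

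Several genes had 1 very low array at 0 mM, which widened their error at every dose. Atp5pb, of the peripheral stalk, had 7.16, 6.94 and 6.74 at 3.5 mM, against 2.28, 6.85, 7.02 and 6.82 at 0 mM. Atp5a1, the alpha subunit of the catalytic head, had 7.22, 7.12 and 7.17 at 3.5 mM, against 3.53, 6.69, 7.06 and 6.69 at 0 mM. Replicate 1 of 0 mM was the low array in both, and the differences of 1.20 (SE 0.69, adjusted p = 0.287) and 1.18 (SE 0.50, adjusted p = 0.142) did not pass.

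The same array was low for Atp5b, the beta subunit, and for Ndufv2 and Ndufv1, which carry the first cofactors of complex I. Other bright probe sets of Atp5pb, Atp5a1 and Ndufv2 gave smaller differences at 3.5 mM, with 0.36 for Atp5pb (adjusted p = 0.0510), 0.36 for Atp5a1 (adjusted p = 0.0972) and 0.41 and 0.25 for Ndufv2 (adjusted p = 0.0682 and 0.206). At 0.35 mM a probe set of Ndufv2 (mean 4.73) fell by 0.53 (adjusted p = 0.0177) and a probe set of Ndufv1 (mean 4.50) by 0.47 (adjusted p = 0.0470). The brightest differed there by 0.03 and 0.00116. At 2.1 mM the same probe sets fell by 0.47 (adjusted p = 0.0161) and 0.46 (adjusted p = 0.0322). The remaining probe set of each gene was not called at either dose. Replicate 1 of 0 mM is also the array that stood apart in the Gapdh 3′ minus 5′ difference (0.355, against at most -0.00835 on the other arrays), whose part in the low values was not tested.

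**Figure D5:**
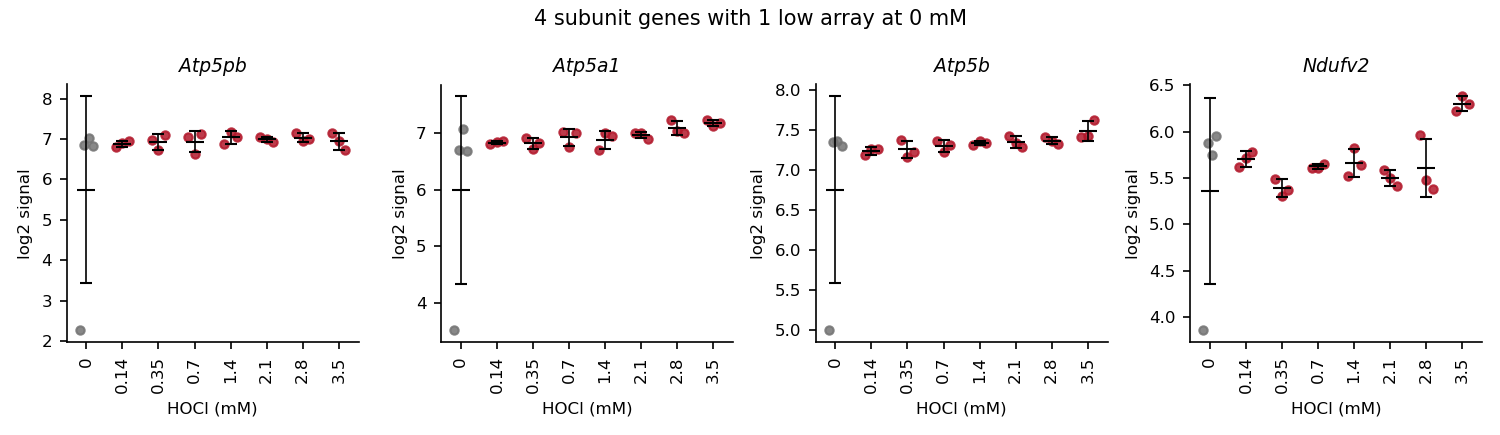
Log2 signal of Atp5pb, Atp5a1, Atp5b and Ndufv2 on each array (points, grey at 0 mM and red at the other doses) by HOCl dose in mM, with mean and SD of the 3 or 4 arrays of a dose in black; vertical axes differ. In each gene 1 grey point, replicate 1 of 0 mM, lies far below the other 24 arrays.

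Cycs, the mobile electron carrier cytochrome c, which also triggers the apoptosome when it leaves mitochondria, had positive differences at all 7 doses. It had 7.21, 7.02 and 7.12 at 2.1 mM, against 5.00, 6.51, 6.96 and 6.39 at 0 mM. All 2.1 mM arrays were higher, and the rise of 0.90 (SE 0.29, adjusted p = 0.0454) was the 1 that passed with this probe set, the brightest. Replicate 1 of 0 mM was again the lowest array, and without it the difference was 0.49 and did not pass (adjusted p = 0.0793). The call was kept in 10 of the 25 fits that leave out 1 array. Another probe set of Cycs, with a mean of 6.68, rose by 0.77 at 2.8 mM (adjusted p = 0.00895), where the brightest differed by 0.88 (adjusted p = 0.0549). It also rose by 0.61 at 1.4 mM (adjusted p = 0.0417) and by 0.73 at 2.1 mM (adjusted p = 0.0103). A probe set with a mean of 4.91 rose by 0.67 at 2.1 mM (adjusted p = 0.0341) and by 0.77 at 2.8 mM (adjusted p = 0.0187). A dim one, with a mean of -1.02, was called at no dose. The F test over the doses did not call the brightest (adjusted p = 0.138) or that with a mean of 4.91 (adjusted p = 0.0865). It called that with a mean of 6.68 (adjusted p = 0.0145).

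Genes around the pathway were counted in lists that were set with earlier results of these data known. Of 44 measured assembly factors, which help to build the complexes, 5 fell and 1 rose at 0.35 mM, and 8 rose and 2 fell at 3.5 mM, with medians of -0.03 and 0.36. The most calls were at 2.1 mM, where 7 rose and 8 fell. Shares of all probe sets to read these and the next lists by are 4.72% lower and 1.71% higher at 0.35 mM, 3.43% and 4.39% at 1.4 mM, 6.09% and 7.26% at 2.1 mM, 6.26% and 5.64% at 2.8 mM, and 5.40% and 3.93% at 3.5 mM. Foxred1, an assembly factor of complex I, had 1.79, 1.57 and 1.60 at 2.1 mM, against 2.44, 2.67, 2.18 and 2.52 at 0 mM. Its arrays did not overlap, and it fell by 0.80 (SE 0.16, adjusted p = 0.00340). Ndufaf3, another such factor, fell by 0.64 at 2.1 mM (adjusted p = 0.0128) and rose by 0.60 at 3.5 mM (adjusted p = 0.0237), and Ndufaf7 fell by 0.69 at 0.35 mM (adjusted p = 0.0145). Those that rose at 2.1 mM include Ttc19, a factor of complex III, by 1.16 (adjusted p = 0.0103), Sco2, a copper chaperone of complex IV, by 0.84 (adjusted p = 0.00713) and Cox16 by 0.70 (adjusted p = 0.00183), 3 genes chosen after their values were seen.

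Of 19 nuclear regulators and genes of mitochondrial transcription and replication, 2 fell and none rose at 0.35 mM, 4 rose and 3 fell at 2.8 mM, and 3 rose and 3 fell at 3.5 mM. Pprc1, a coactivator related to PGC-1, had 2.28, 0.76 and 1.28 at 3.5 mM, against 2.94, 3.29, 3.35 and 3.21 at 0 mM. It was lower on all 3 arrays and fell by 1.76 (SE 0.22, adjusted p = 3.61e-05). Polg2, the accessory subunit of the mitochondrial DNA polymerase, rose by 0.65 at 3.5 mM (adjusted p = 0.00411). Gabpb1, a subunit of the ETS factor GABP, rose by 0.76 at 2.8 mM (adjusted p = 0.0121).

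Of 12 measured TCA cycle genes 3 fell at 0.35 mM, 1 fell at 2.1 mM and 2 rose at 3.5 mM, with no other calls, and the list medians were 0.00 at 0.35 mM and 0.43 at 3.5 mM. Idh3g, a subunit of NAD-dependent isocitrate dehydrogenase, had 4.63, 4.37 and 4.51 at 0.35 mM and 5.47, 5.81 and 5.92 at 3.5 mM, against 4.96, 5.33, 4.90 and 5.49 at 0 mM. It was lower on every 0.35 mM array and fell by 0.67 (adjusted p = 0.0173), and it rose by 0.56 at 3.5 mM (adjusted p = 0.0267), where 1 array overlapped with 0 mM. Idh3b, a partner subunit, fell by 0.51 at 0.35 mM (adjusted p = 0.00745), and fumarase Fh1 was called at no dose.

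Of 7 measured carriers 1 fell at 0.35 mM, 1 rose at 2.1 mM and 1 rose at 3.5 mM, with no other calls. Vdac1, an outer membrane channel, fell by 0.66 at 0.35 mM (adjusted p = 0.0134), and its relative Vdac3 rose by 0.50 at 3.5 mM (adjusted p = 0.0111). The adenine nucleotide carrier Slc25a4 was called at no dose.

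Of 6 genes tied to hypoxia signalling and respiration 2 fell at 0.35 mM, 2 at 1.4 mM, 4 at 2.1 mM, 2 at 2.8 mM and none at 3.5 mM, and none rose. Pdk1, a kinase that limits pyruvate entry into mitochondria, had 2.59, 1.77 and 2.39 at 0.35 mM, against 3.61, 4.14, 2.81 and 3.81 at 0 mM, and fell by 1.35 (SE 0.37, adjusted p = 0.0347). Its arrays did not overlap with 0 mM, where replicate 3 was again the lowest. Mxi1, a Myc antagonist, fell by 1.12 at 0.35 mM (adjusted p = 0.0140) and Egln3, a prolyl hydroxylase, by 0.56 at 2.1 mM (adjusted p = 0.00235). Subunits encoded in mitochondrial DNA were not analysed here.

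Among genes outside the group, those whose dose means were most like the mean of complex I over the 8 doses were Mrpl48 (Pearson r = 0.990), Smc2os (r = 0.989) and Hadhb (r = 0.985). Smc2os lay below the array median at every dose, with dose means of -1.48 to -1.13, and is a dim probe set. The mean of complex I was 4.65 at 0.35 mM, 4.85 at 0 mM and 5.19 at 3.5 mM. Mrpl48, a protein of the mitochondrial ribosome, had dose means of 3.64 at 0.35 mM, 4.01 at 0 mM and 4.55 at 3.5 mM, and Hadhb, an enzyme of fatty acid oxidation, 3.86, 4.18 and 4.62 at the same doses. These correlations are over 8 dose means of the same 25 arrays and are a description of likeness only.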

How the data were processed

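RNA of each sample was hybridized to 1 array. Array Assist was used to extract intensities, per the design text, and RMA is named in the submitters' processing notes, with no settings stated in either. The deposited table holds log2 values for each probe set, centred on the median of each array. That the base is 2 is not stated by the authors and was taken from the range of the values, so folds rest on it.

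Of the 45101 probe sets, 64 are controls, which were not tested. Means of the 8 doses were estimated from the 25 arrays in 1 model (limma 3.58.1, R 4.3.3, 17 residual and 2.99 prior degrees of freedom), with two-sided tests adjusted by Benjamini and Hochberg over 45037 probe sets in each comparison. Figures were drawn with matplotlib 3.10.9 in Python 3.11.15. The model was tested on simulated data.

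The members and lists were chosen with earlier results of these data known. The rule for named genes took the 4 lowest F test p-values per complex, the 3 largest called rises and falls per dose, complex II, Cyc1, Cycs, isoform pairs, members with disagreeing probe sets, 3 genes by F test per list and 3 genes most like complex I. Ndufb4, Ndufb8, Atp5g3, Atp5l, Atp5o, Ttc19, Sco2, Cox16 and the genes with a low array at 0 mM were named after their values were seen.

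Replicate numbers did not pair the arrays: residuals correlated above 0.1 in 19 of 84 same-numbered pairs (median -0.03). Alternatives were quantile normalization, omission of dim probe sets, a trended robust prior, a replicate block, another choice of probe set, the control level as a term or its low arrays alone, the groups compared alone, and omission of each array.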

Additional observations from a re-analysis of the deposited data

Results flagged for a closer look

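Among the 84 subunit genes 10 had 1 array at 0 mM whose gap to its nearest neighbour exceeded the critical value of Dixon's test for 4 samples; chance flags about 1 in 20 groups. Of these, 4 lay on replicate 1, all below the other 3 arrays: Atp5pb at 2.28, Atp5a1 at 3.53, Ndufv2 at 3.86 and Atp5b at 4.99. The other 6 lay on replicate 3. There Ndufa1 at 5.57 and Uqcrfs1 at 5.44 were below the other arrays, while Atp5g1 at 5.73, Uqcrb at 7.45, Ndufa5 at 4.66 and Cyc1 at 6.29 were above them. Every comparison with 0 mM uses both arrays. Replicate 1 also had the highest Gapdh 3′ minus 5′ difference of the 25 arrays (0.355), and the part of this in its low values was not tested.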

How the results depend on the processing

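Of 67 called pairs of a gene and a dose, 52 stayed called after quantile normalization, 28 with the replicate block, 20 with the control level as a term, 13 with only the groups compared and 67 with 1 probe set per gene, and none of these turned its sign. With the probe set of largest variance 53 stayed called and 5 turned sign: Ndufs8 (0.89), Cox5b (0.0104) and Atp5c1 (0.0574) at 0.35 mM, and Ndufa12 (-0.99) and Ndufb8 (-0.19) at 3.5 mM. The mean of that probe set was 6.18 for Ndufs8 and between 0.62 and 1.06 for the others. At 0.14 and 0.7 mM every alternative called 0 genes.

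Quantile normalization gave 11 called genes at 1.4 mM (main value 3), 25 at 2.1 mM (15), 13 at 2.8 mM (7) and 9 at 3.5 mM (18), and the median over the 84 genes turned negative at 0.14 mM (-0.03), 0.7 mM (-0.09), 1.4 mM (-0.12) and 2.8 mM (-0.06). It stayed negative at 0.35 mM (-0.19) and positive at 3.5 mM (0.15). The replicate block gave 5 at 0.35 mM (24), 0 at 1.4 mM, 5 at 2.1 mM and 3 at 2.8 mM. The control level as a term gave 0 at 1.4, 2.1 and 2.8 mM and 3 at 3.5 mM, and within its low arrays 3 were called at 0.35 mM. As that term is drawn from the arrays of 0.35 and 0.7 mM alone, lost calls cannot be assigned to the level. Only the groups compared gave 0 at 0.35 and 1.4 mM, 8 at 2.1 mM, 1 at 2.8 mM and 4 at 3.5 mM. At 2.8 mM 1 probe set per gene gave 11 and the probe set of largest variance 12.

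Leaving out 1 array at a time gave 1 to 28 called genes at 0.35 mM (lowest without replicate 2 of that dose, highest without replicate 3 of 0 mM), 0 to 13 at 1.4 mM, 4 to 22 at 2.1 mM, 1 to 20 at 2.8 mM, 11 to 24 at 3.5 mM, 38 to 47 by the F test and 12 to 45 at any step. At 0.35 mM 4 genes were called without replicate 2 of 0 mM and 5 without replicate 4. The causes were not tested.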
